A study of Mus musculus with 6 samples.

Results

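The genes described here are 9 markers of pericytes and vascular smooth muscle cells, Rgs5, Mcam, Cspg4, Kcnj8, Des, Acta2, Tagln, Cnn1 and Myh11, among 21631 protein-coding genes. They were chosen as known markers of these mural cells, not by a measured value, but with earlier results of these data known. A region of open chromatin belongs to a gene when the summit of its peak lies in that gene or within 100 kb of it and no other protein-coding gene is nearer. By this rule the 9 genes hold 46 of 78632 open regions of the series, and between 35 and 54 of the 65462 to 100642 peaks of a library.

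The libraries are ATAC-seq, in which the Tn5 transposase cuts accessible DNA, made from tdTomato-positive mesenchymal stromal and progenitor cells sorted from bone marrow. All mice were female and Lepr-Cre;LSL-tdTomato+/-, so in both groups Cre driven by Lepr switched on the tdTomato reporter in cells that had expressed the leptin receptor gene and in their descendants. Mice aged 8 to 10 weeks at treatment received 4 intravenous doses, 1 week apart, of either 5 mg/kg doxorubicin (DOX) or phosphate-buffered saline (PBS), and cells were collected 8 weeks later. Each group has 3 libraries. The titles call the libraries of a group biological replicates, and the labels do not say how many mice went into each.

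Pericytes wrap capillaries and share the vessel wall lineage with the smooth muscle cells of arterioles and larger vessels. Surface and signalling genes such as Cspg4 and Rgs5 are used to recognise pericytes, whereas contractile genes such as Acta2, Tagln, Cnn1 and Myh11 mark smooth muscle and are driven by serum response factor (SRF) with its cofactor myocardin at a DNA element called the CArG box. Lepr-expressing stromal cells of the marrow lie around sinusoids and arterioles and are themselves perivascular, so open chromatin at these genes does not by itself name a cell type, and it does not measure transcript levels.

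The promoters of these genes differed in base composition and in how much of them was open, and 5 of them are printed to show this. Each window runs from 250 bases before to 50 bases after the annotated start (RefSeq, GRCm38.p6, the assembly that mm10 displays), 5′ to 3′ on the gene's strand. 7 of the 9 genes have a window in the table; Myh11 and Tagln do not. Capitals mark GC boxes, GGGCGG on either strand, and matches to the CArG box with at most 1 letter changed. The windows are Cspg4 at chr9:56864854-56865153 (plus strand), Mcam at chr9:44134408-44134707 (plus strand), Rgs5 at chr1:169655251-169655550 (plus strand), Acta2 at chr19:34255324-34255623 (minus strand) and Cnn1 at chr9:22099003-22099302 (plus strand).
Cspg4: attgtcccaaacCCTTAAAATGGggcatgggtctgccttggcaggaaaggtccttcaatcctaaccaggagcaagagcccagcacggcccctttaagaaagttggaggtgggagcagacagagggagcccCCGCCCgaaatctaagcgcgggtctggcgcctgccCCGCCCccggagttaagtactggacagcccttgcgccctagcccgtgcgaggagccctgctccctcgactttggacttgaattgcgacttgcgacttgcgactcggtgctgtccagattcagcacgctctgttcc
Mcam: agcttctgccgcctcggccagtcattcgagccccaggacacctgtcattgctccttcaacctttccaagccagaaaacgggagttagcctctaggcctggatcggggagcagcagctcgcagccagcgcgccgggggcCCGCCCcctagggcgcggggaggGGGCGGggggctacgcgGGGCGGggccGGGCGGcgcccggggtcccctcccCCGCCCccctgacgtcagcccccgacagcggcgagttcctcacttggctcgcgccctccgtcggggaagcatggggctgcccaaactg
Rgs5: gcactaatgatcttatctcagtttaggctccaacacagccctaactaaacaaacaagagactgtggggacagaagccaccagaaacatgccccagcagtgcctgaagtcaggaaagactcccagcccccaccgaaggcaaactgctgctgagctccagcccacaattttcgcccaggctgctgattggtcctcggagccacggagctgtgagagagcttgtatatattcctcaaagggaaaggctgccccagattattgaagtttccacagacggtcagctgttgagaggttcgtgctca
Acta2: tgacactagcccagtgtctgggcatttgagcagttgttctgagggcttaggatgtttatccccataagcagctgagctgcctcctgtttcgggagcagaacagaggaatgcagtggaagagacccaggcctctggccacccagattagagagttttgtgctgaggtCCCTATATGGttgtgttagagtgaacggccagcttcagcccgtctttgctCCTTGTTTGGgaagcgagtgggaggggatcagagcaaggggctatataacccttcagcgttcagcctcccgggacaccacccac
Cnn1: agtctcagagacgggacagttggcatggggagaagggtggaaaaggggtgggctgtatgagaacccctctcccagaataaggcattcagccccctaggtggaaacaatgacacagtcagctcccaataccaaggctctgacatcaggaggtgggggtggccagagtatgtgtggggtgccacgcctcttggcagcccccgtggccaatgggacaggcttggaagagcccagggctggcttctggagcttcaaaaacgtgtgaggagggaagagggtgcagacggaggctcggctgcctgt

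The Mcam window held 5 GC boxes, 29 CpG dinucleotides and 72.7% G and C, the most of the 7 windows by each measure. Cspg4 and Des held 2 GC boxes each, at 60.0% and 65.3% G and C. The windows of Rgs5, Acta2, Cnn1 and Kcnj8 held no GC box and between 52.3% and 59.3% G and C, with 6 CpG dinucleotides in each of Rgs5, Acta2 and Cnn1 and 9 in Kcnj8. A GC box was found in 46.7% of the 21045 mouse promoter windows, whose median was 56.7% G and C and 13 CpG dinucleotides.

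An exact CArG box, searched on both strands, was in none of the 7 windows and in 1.54% of all windows. With 1 changed letter allowed it was in 3 of the 7 and in 19.7% of all windows. In Acta2 the matches were CCCTATATGG and CCTTGTTTGG, starting 84 and 34 bases before the start. In Cspg4 they were CCTTAAAATG and CTTAAAATGG, which overlap each other by all but 1 base, and in Kcnj8 CCTTTTAAAG. No match overlapped a GC box. The letters TATAA, on either strand, were found in the Acta2 window alone among the 7 and in 22.0% of all windows. These are matches of letters in short windows, not measured binding sites, and a window without a match says only that the letters are not in it.

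To compare libraries of unequal depth, each library's peaks were ranked by the peak caller's p and the strongest 65462 kept, the length of the shortest list. Rank 1 is the strongest peak. The deposited lists held 65462 to 89264 peaks in PBS and 91026 to 100642 in DOX. The mean background recovered from the peak values was 0.558 to 1.27 fragments per position in PBS and 1.67 to 2.22 in DOX, so every DOX library was deeper than every PBS library, and depth and treatment cannot be told apart. A peak that is not listed was below that library's threshold, which does not show closed chromatin.

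All 9 genes had at least 1 region listed in every library, and 28 of their 46 regions (60.9%) were in all 6, beside 49077 of all 78632 regions (62.4%). 6 regions were in a single library and 12 in 2 to 5. These counts are of the ranked peaks. In the full deposited lists, 32 of the 46 regions had a peak in all 6 libraries and 1 in a single library. The same count over all regions was not made. The 28 shared regions had a median rank of 24952, beside 25128 over all shared regions. Of the 28, 2 (7.14%) were in the top decile of the lists, into which 13.2% of all shared regions fell. By place, 9 of the 46 regions had their summit within 1 kb of a gene end, 25 lay elsewhere inside the gene and 12 outside it.

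**Figure D1:**
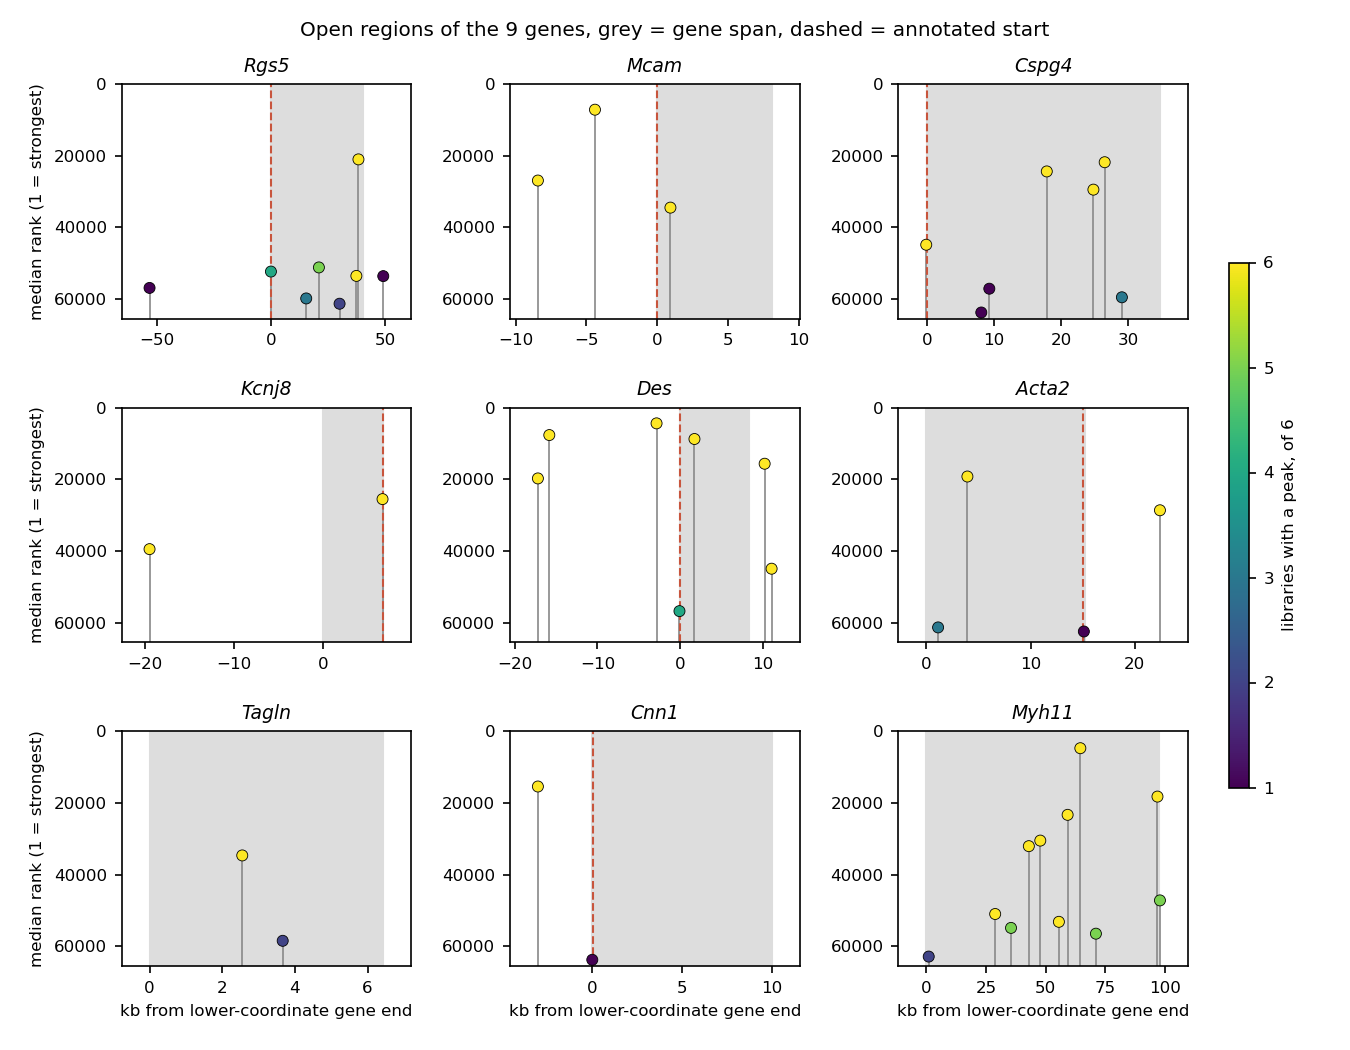
Open regions of the 9 genes along each gene. The x axis is the distance in kb from the gene's lower-coordinate end, the y axis the median rank over the libraries that list the region (1 is strongest), the colour the number of libraries out of 6, grey the gene span and the dashed line the annotated start where the promoter table gives one. The strongest regions, of Des and Myh11, have median ranks of 4367 and 4683 and lie away from the starts, while the start regions of Acta2 and Cnn1 were each listed in 1 library.

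Cspg4 encodes the NG2 proteoglycan of the pericyte surface. Its start region, at chr9:56864643-56865296, was listed in all 6 libraries, with ranks of 35675, 43862 and 40755 in PBS replicates 1, 2 and 3 and 54852, 50514 and 45849 in DOX replicates 1, 2 and 3. The PBS and DOX ranks did not overlap, and the region stood lower in each DOX list. The fragments piled up at its summit were 40, 27 and 14 in PBS and 27, 32 and 50 in DOX, so the raw heights overlapped between the groups. Among the 28 regions this was the only one with an unadjusted p under 0.05.

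The test behind that statement used limma on the rank of each of the 49077 shared regions among themselves, turned into a normal score, on which 0 is the median region and higher values are stronger. The Cspg4 start scored −0.77 on average in PBS and −1.48 in DOX. The difference was −0.72 ± 0.29 (SE, n = 3 and 3 libraries) with an adjusted p of 0.30 over all shared regions (limma, Benjamini-Hochberg), so it did not pass the threshold of 0.05. No region of any gene passed in this test (0% of 49077), and 13.1% of all shared regions had an unadjusted p under 0.05. The 3 stronger Cspg4 regions all lie inside the gene, the strongest at chr9:56891380-56891924 with ranks of 18412, 21565 and 22094 in PBS and 23652, 21115 and 22999 in DOX. These ranges overlap, and its difference was −0.11 ± 0.09 (adjusted p = 0.641, limma).

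Mcam encodes CD146, an adhesion molecule of pericytes, endothelium and stromal progenitors. Its strongest region, at chr9:44129544-44131287, lies 4399 bp before the gene and had ranks of 8273, 6825 and 9603 in PBS and 5793, 7516 and 6438 in DOX. The start region, at chr9:44133995-44136193, had ranks of 35670, 36487 and 36952 in PBS and 32898, 33330 and 31168 in DOX. Every DOX rank of the start region was stronger than every PBS rank, while the ranks of the upstream region overlapped. The rank of a region is that of its strongest peak. At the start, this peak had its summit near 44134220 in PBS and in DOX replicates 1 and 2. In DOX replicate 3 its summit was at 44135585, so these ranks are not all of the same site. Neither passed the test: the differences were 0.17 ± 0.16 at the start (adjusted p = 0.693, limma) and 0.14 ± 0.07 upstream (adjusted p = 0.429, limma). The third region, at chr9:44125991-44126456 and 8428 bp before the gene, had the largest change of rank at this gene, −0.22 ± 0.12 (adjusted p = 0.432, limma).

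The Mcam start also shows how peak width enters a count of peaks. In PBS it was listed as 2, 2 and 3 separate peaks that together covered 1674, 1293 and 544 bp. In each DOX library it was a single peak, of 1950, 1961 and 2195 bp. Kept peaks were narrower in PBS generally, with library medians of 328 to 476 bp against 505 to 542 bp in DOX. Counted as peaks, Mcam therefore had 4, 4 and 5 in PBS and 3 in each DOX library, and counted as regions it had 3 in all.

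Rgs5 encodes a regulator of G-protein signalling used as a pericyte marker. Its start region, at chr1:169655208-169655604, was ranked 53613 in PBS replicate 1 and 54318, 51074 and 47434 in DOX, and was outside the ranked peaks of PBS replicates 2 and 3. In the full deposited lists its summit had 22 and 9 fragments in PBS replicates 1 and 2, no listed peak in PBS replicate 3, and 27, 31 and 47 fragments in DOX. The start was thus weak wherever it was listed, and PBS replicate 3, where it was not, was the shallowest library. The strongest Rgs5 region, at chr1:169693466-169694126 near the higher-coordinate end of the gene, was in all 6 libraries at ranks of 19118, 26764 and 19307 in PBS and 22742, 19537 and 22536 in DOX. These overlapped between groups.

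Kcnj8 encodes Kir6.1, the pore subunit of an ATP-sensitive potassium channel of pericytes and smooth muscle. It had the same 2 regions in all 6 libraries. The start region, at chr6:142571061-142571699, was the strongest start of the 7 with a promoter window, with ranks of 25138, 26889 and 22025 in PBS and 29290, 25124 and 25874 in DOX. The other, at chr6:142545107-142545558 and 19467 bp beyond the far end of the gene, had ranks of 39250, 39685 and 36732 in PBS and 43283, 40424 and 35392 in DOX. PBS and DOX overlapped at both, and the difference at the start was −0.12 ± 0.12 (adjusted p = 0.686, limma).

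**Figure D2:**
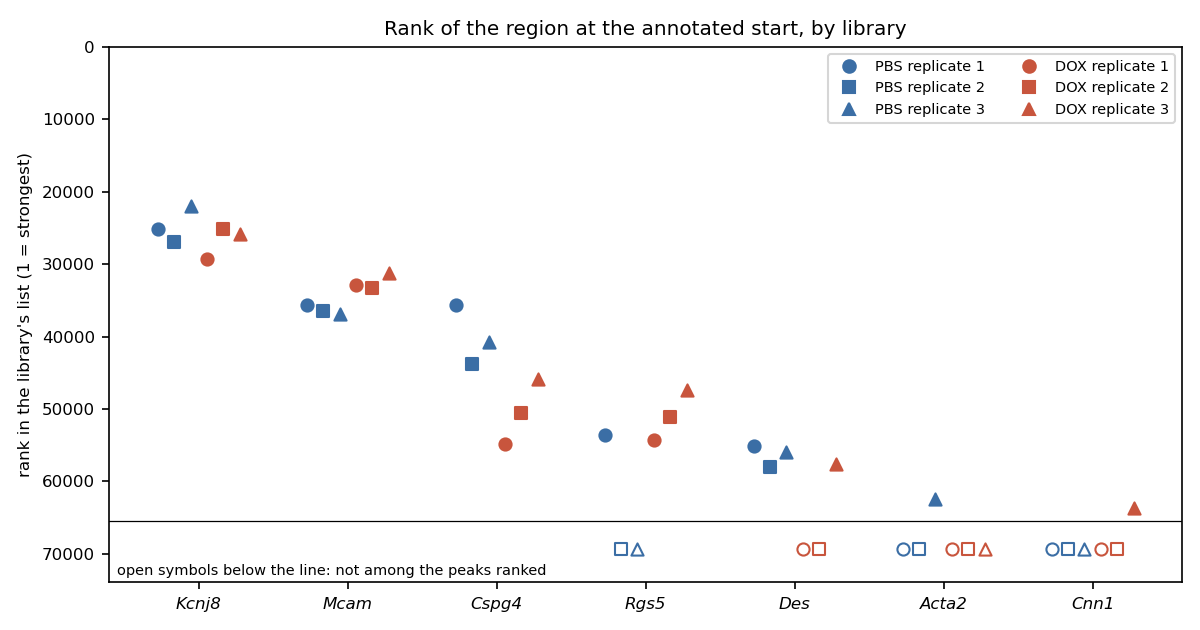
Rank of the region at the annotated start of the 7 genes with a promoter window, by library. The y axis is the rank in the library's list (1 is strongest), blue is PBS, red is DOX, and open symbols below the line mark libraries where the start was outside the 65462 ranked peaks. Kcnj8, Mcam and Cspg4 have a ranked start in all 6 libraries, Rgs5 and Des in 4, and Acta2 and Cnn1 in 1.

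Des encodes desmin, the intermediate filament of muscle that is also found in pericytes. 6 of its 7 regions were in every library, and among them was the strongest region of all 9 genes, at chr1:75357081-75358157 and 2847 bp before the gene. Its ranks were 4548, 4188 and 4033 in PBS and 4737, 4201 and 4532 in DOX. The groups overlapped, and the difference was −0.03 ± 0.06 (adjusted p = 0.878, limma). The region inside the gene, at chr1:75361527-75362420, had ranks of 9264, 7694 and 10473 in PBS and 10818, 8197 and 7449 in DOX, and another, 15824 bp before the gene at chr1:75343916-75346043, had a median rank of 7635.

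The Des start, at chr1:75360092-75360515, lay between these strong regions and was weak. It ranked 55101, 58078 and 55923 in PBS and 57605 in DOX replicate 3, and was outside the ranked peaks of DOX replicates 1 and 2. All 6 deposited lists held it, with 21, 17 and 8 fragments at the summit in PBS and 12, 18 and 34 in DOX. A region 17205 bp before the gene, at chr1:75342817-75343371, ranked 19501, 17640 and 16463 in PBS and 21024, 19965 and 21689 in DOX. Those groups did not overlap, DOX being lower, with a difference of −0.17 ± 0.08 (adjusted p = 0.399, limma).

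Acta2 encodes smooth muscle alpha-actin, the most used marker of contractile mural cells. Its start, at chr19:34255322-34255461, reached the ranked peaks only in PBS replicate 3, at rank 62449 with 7 fragments. In the full deposited lists a peak lay there in all 6 libraries, with 13, 12 and 7 fragments at the summit in PBS and 17, 21 and 24 in DOX. These are close to the weakest ranked peaks, which had 16, 14 and 5 fragments in PBS and 20, 21 and 28 in DOX. 2 other regions were shared by all libraries and were stronger. One lies inside the gene at chr19:34243914-34244559, with ranks of 17732, 17830 and 20713 in PBS and 19128, 19276 and 19345 in DOX.

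The second shared Acta2 region lies 7163 bp upstream of the gene, at chr19:34262424-34262981. Its ranks were 29074, 32867 and 29500 in PBS and 25782, 25680 and 28164 in DOX. Every DOX rank was stronger than every PBS rank, and the difference of 0.17 ± 0.13 did not pass the test (adjusted p = 0.588, limma). Another Acta2 region, 10063 bp upstream at chr19:34265562-34265883, was found in the full deposited lists of all 3 DOX libraries, with 14, 15 and 24 fragments, and in no PBS list. It was not among the 65462 ranked peaks of any library.

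Cnn1 encodes calponin-1, an actin-binding regulator of smooth muscle contraction. Its start was ranked in DOX replicate 3 alone, at 63731. In the full deposited lists the start region, at chr9:22099102-22099313, had 18, 17 and 29 fragments in DOX and no listed peak in PBS. DOX lists were the longer and deeper ones, and the part of depth in this was not tested. The main Cnn1 region lies 3033 bp before the gene at chr9:22095905-22096446 and ranked 15168, 16691 and 17804 in PBS and 15573, 14458 and 15042 in DOX. The groups overlapped, with a difference of 0.08 ± 0.07 (adjusted p = 0.696, limma).

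Tagln encodes transgelin, an actin-binding protein of smooth muscle. Its shared region inside the gene, at chr9:45931934-45932408, varied between libraries, with ranks of 45086, 31423 and 27170 in PBS and 40611, 37789 and 31414 in DOX. At the higher-coordinate end of the gene, 5 libraries had a separate peak, with ranks of 34371, 37216 and 36954 in PBS and 32902 and 37124 in DOX replicates 1 and 3. In DOX replicate 2 this peak ran together with a stronger one nearest to the neighbouring gene Sidt2, as a single peak at chr9:45935372-45937396 of rank 18587. The merged region therefore counts for Sidt2 and is outside the 46.

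Myh11 encodes the smooth muscle myosin heavy chain, often taken as the most specific of these contractile markers. It had the most regions, 11, of which 7 were in every library. The strongest, at chr16:14258656-14259449 inside the gene, ranked 5134, 3450 and 5288 in PBS and 5530, 4232 and 3576 in DOX. It is the second strongest region of the 9 genes, and PBS and DOX overlapped (difference 0.02 ± 0.08, adjusted p = 0.940, limma). A region 737 bp inside the higher-coordinate end of the gene, at chr16:14291144-14291895, ranked 20779, 17422 and 16063 in PBS and 21782, 16329 and 18945 in DOX.

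The largest change of rank at Myh11 was at chr16:14249734-14250322, with ranks of 58235, 44255 and 62054 in PBS and 59523, 48033 and 36186 in DOX. The ranges overlapped, and the difference of 0.41 ± 0.45 rested on a spread as large as itself (adjusted p = 0.732, limma). The weak peak at the higher-coordinate end, at chr16:14292107-14292616, was ranked in 5 libraries, at 62303 and 43740 in PBS replicates 1 and 3 and at 51789, 47154 and 41840 in DOX.

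Over the 28 shared regions, 12 scores were higher and 16 lower in DOX, with a median difference of −0.02 beside −0.00 over all shared regions. None passed the adjusted threshold, against a background of 0%. Ranks did not overlap between groups at 4 of the 28 regions: the Mcam start and the Acta2 region 7163 bp upstream were higher in DOX, and the Cspg4 start and the Des region 17205 bp before the gene were lower. Of all shared regions, 10.8% were higher and 7.86% lower without overlap, so 2 of 28 in each direction is near the background. No region of the 9 genes was ranked in all libraries of one treatment and none of the other, beside 0.816% of all regions for DOX and 0.294% for PBS. In the full deposited lists 2 were listed after DOX only, the Cnn1 start and the Acta2 region 10063 bp upstream, and 0 after PBS only, beside 1.9% and 0.038% of all regions.

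**Figure D3:**
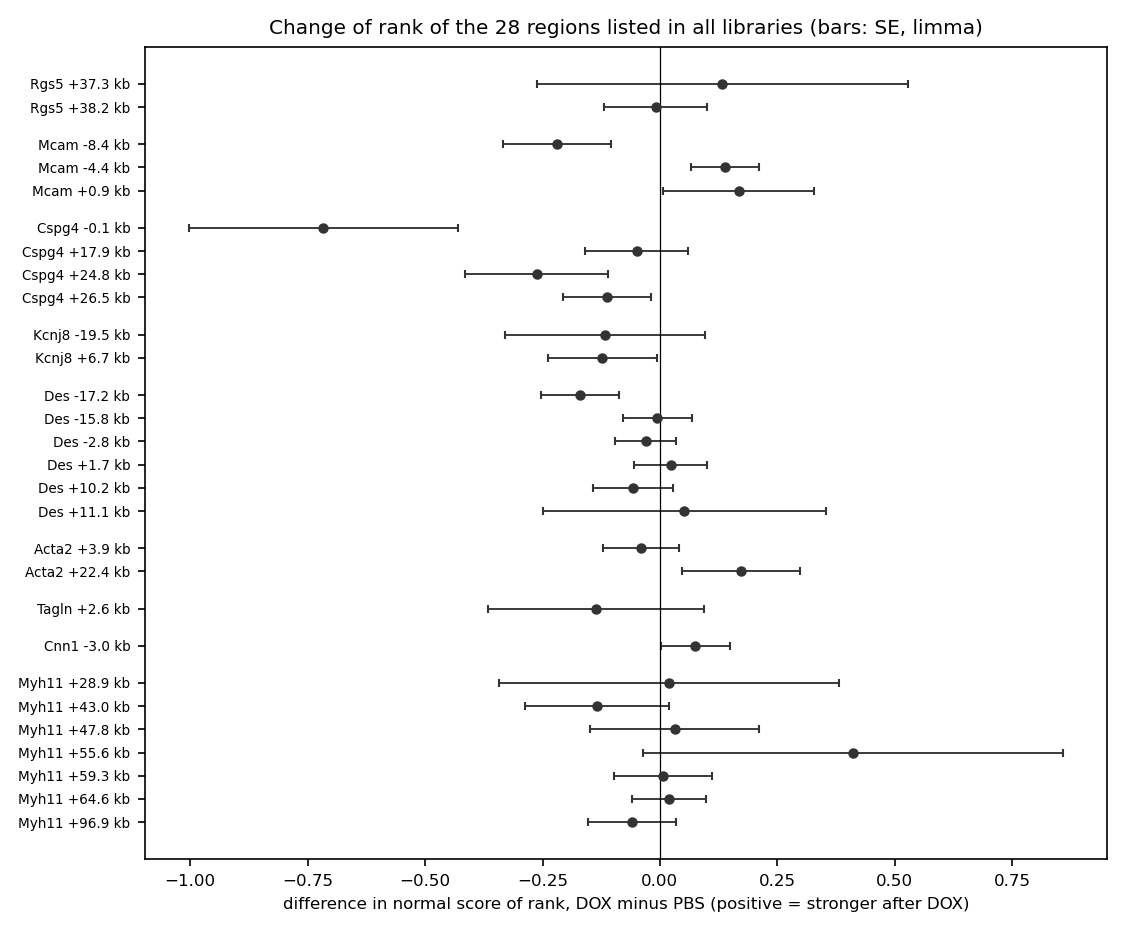
Difference in normal score of rank, DOX minus PBS, for the 28 regions listed in all 6 libraries. Points are differences of group means (n = 3 and 3 libraries), bars are standard errors from limma, and labels give the gene and the summit's distance in kb from the gene's lower-coordinate end. The Cspg4 start has the largest difference, −0.72, and no region passes the adjusted threshold of 0.05.

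The number of peaks per gene was then compared, on the scale log2(peaks + 0.5), over the 8916 genes that averaged 2 or more peaks. 8 of the 9 genes were tested, and Cnn1, with 1 peak in 5 libraries and 2 in DOX replicate 3, was too low. None of the 8 passed an adjusted p of 0.05, while 0.572% of all tested genes were called higher and 0.527% lower in DOX. 1 of the 8, Mcam, had an unadjusted p under 0.05, as did 5.2% of all tested genes. The Mcam difference was −0.46 ± 0.09 (SE, n = 3 and 3 libraries, adjusted p = 0.406, limma), the change from 4 or 5 peaks to 3 described above.

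For Rgs5 the PBS libraries gave 6, 4 and 2 peaks and the DOX libraries 6, 5 and 5. Its difference of 0.48 ± 0.40 (adjusted p = 0.797, limma) depends on which PBS libraries enter: it was 0.10 without PBS replicate 3 and 0.79 without PBS replicate 1. Acta2 had 3 in each PBS library and 3, 2 and 2 in DOX (−0.32 ± 0.16, adjusted p = 0.646, limma). Des had 7 in each PBS library and 6, 6 and 7 in DOX (−0.14 ± 0.07, adjusted p = 0.646, limma). In both, the missing DOX peaks are weak ones that the full deposited lists hold.

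For Cspg4 the PBS libraries gave 6, 5 and 4 peaks and the DOX libraries 5, 4 and 5. For Myh11 they gave 10, 10 and 9 after PBS and 9, 11 and 10 after DOX. Tagln had 3, 2 and 2 in PBS and 2 in each DOX library, and Kcnj8 had 2 in all 6. The groups overlapped at each of these genes. The median difference over the 8 genes was −0.11, beside 0 over all tested genes. Summed over the 9 genes, peaks numbered 38.3 ± 3.51 in PBS and 37.0 ± 1.00 in DOX (SD, n = 3 libraries each), a difference within the PBS spread.

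A gene end with a peak within 1 kb in every library was found for 5 of the 9 genes (Mcam, Cspg4, Kcnj8, Tagln and Myh11), or 55.6%, beside 57% of all protein-coding genes. Any peak reaching the end counted here, also one nearest to another gene. In DOX replicate 2, Tagln was open only through the merged peak that counts for Sidt2. A separate count, of a peak reaching the 300-base promoter window in every library, gave 3 of 7 (Mcam, Cspg4 and Kcnj8), or 42.9%, beside 55.6% of all genes with a window. With the full deposited lists it was 5 of 7, or 71.4%, beside 56.3% of all genes, so whether the 9 genes stand below or above all genes depends on the lists used. Peaks covered 0 to 300 bases of the Rgs5 window and 20 to 300 of the Mcam window in the ranked lists. The extremes at Mcam came from its narrow peaks in PBS replicate 3, where 20 bases were covered against 300 in the other 5 libraries.

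Other genes of the same programmes were counted in the same way. Among 31 genes of the contractile and SRF-myocardin programme, 24 of 26 with a window had a peak there in all 6 libraries, the exceptions being Pln and Kcnmb1. The 24 include Srf and its cofactors Mrtfa and Mrtfb. Myocd, which encodes myocardin, has no window in the table, and neither of its gene ends had a peak in any of the 6 libraries. In all, 5 of the 31 genes had no open end in any library (Myocd, Actg2, Pln, Kcnmb1 and Fhl2), and 25 had one in every library. Fhl2 is nonetheless among the 24, with a peak in its promoter window in all 6 libraries. So is Filip1l, which had an open end in only 1. A gene without an open end can therefore have an open annotated start, and for Myocd this could not be checked. Among 30 other mural cell and pericyte genes it was 15 of 18, the exceptions being Ednrb, Nr2f2 and Vtn. Pdgfrb and Foxc1 belong both to this list and to the Lepr-lineage stromal list counted below. None of the 25 contractile and 24 mural genes tested for peaks per gene passed in either direction, and their median differences were 0.02 and −0.11. The genes named here were picked after their values were seen, and these lists were set beside the 9 genes as counts, without a test.

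Markers of other cells the sort could hold were counted too. The promoter window was open in all 6 libraries for 2 of 11 endothelial genes, 0 of 10 skeletal muscle genes, 1 of 3 Schwann cell genes and 1 of 12 blood cell genes. For the Lepr-lineage stromal genes, the labelled identity of the sorted cells, it was 14 of 14. By gene ends open in all 6 libraries, counts were 5 of 18 endothelial, 4 of 13 skeletal muscle, 4 of 8 Schwann cell and 5 of 16 blood cell genes. Stromal genes stood at 19 of 20 by this measure, which also counts peaks nearest to another gene. The only gene called in any of these lists was the stromal adhesion gene Vcam1, with 11 peaks in each PBS library and 14, 14 and 15 in DOX (0.37 ± 0.03, adjusted p = 0.0194, limma). The spread of its peak numbers was near 0, and the call was lost with the spread raised to the trend over all genes (adjusted p = 0.450, limma), with the replicate block (adjusted p = 0.155), in the deposited lists (adjusted p = 0.414), in shorter lists (adjusted p = 1), by merged regions (adjusted p = 0.544), when every gene within 100 kb was counted (adjusted p = 0.477) and without PBS replicate 3 (adjusted p = 0.0512). In a bulk sample, a weak start in all cells and an open start in a small share of cells cannot be told apart.

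**Figure D4:**
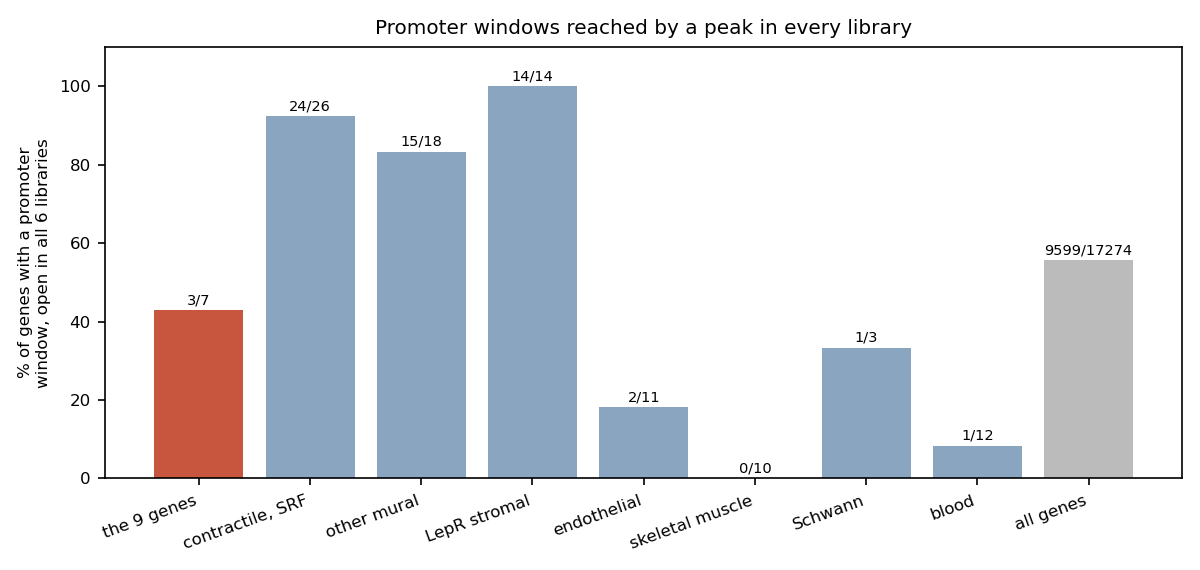
Share of genes whose promoter window is reached by a peak in all 6 libraries, in percent, for the 9 genes, 7 comparison lists and all protein-coding genes. Numbers above the bars are genes open over genes with a window. The 9 genes stand at 3 of 7, the contractile list at 24 of 26 and the stromal list at 14 of 14.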

How the data were processed

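ATAC-seq peak lists of 3 PBS and 3 DOX libraries were used; groups and replicate numbers came from the sample titles. The authors deposited 1 list per library, on mm10 per the submitters' processing notes, which name MACS2 2.2.7.1, Bowtie2 2.4.5, DiffBind 3.16.0, Trim Galore 0.6.6, Picard 2.10.9, FastQC 0.11.5 and MultiQC 1.7 with no role or order. Caller settings, any Tn5 shift and read filters were not given in the sources used here. Deposited values of a peak are its score, its fold enrichment (a ratio), its −log10 p, its −log10 q and its summit position. They are the authors' values and in the main results were used inside 1 list, for ranking, filtering or describing its peaks. The summit of a merged region was that of its peak with the highest fold enrichment in any library. Pileups recovered from these values are printed side by side without scaling. An alternative of the rank test put fold enrichments on a common scale by quantile normalisation. Another alternative scaled peak numbers per gene to the totals of the deposited lists. No other value was scaled between libraries and no read counts were used.

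A peak's fold and −log10 p together determine its pileup and the constant background of its library, and 100% of recovered pileups were whole numbers to within 0.05. Intervals for single peaks were not computed, and low pileups carry counting error. Chromosomes 1 to 19 and X were used. Each list was shortened to its strongest 65462 peaks by −log10 p, and overlapping peaks (at least 1 bp) were merged into regions. Peaks and regions went to the nearest protein-coding span of a RefSeq table (GRCm38.p6) within 100 kb, with ties shared. The table gives no exons, so exon, intron and UTR were not told apart.

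limma 3.58.1 (R 4.3.3, trend and robust) was fitted to all genes averaging 2 or more peaks, on log2(peaks + 0.5), and to the normal scores of all shared regions, with Benjamini-Hochberg adjustment and a threshold of 0.05. Both fits were tested on simulated data. Regions named are those at a gene's start or ends, the strongest by median rank, those listed after 1 treatment only, and the shared region with the largest change. Other regions were named after their values were seen. Alternatives were the full lists, shorter lists, other rankings, pseudocounts, filters, assignments and spreads, a replicate block and leaving out each library. The genes and lists were chosen with earlier results of these data known.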

Additional observations from a re-analysis of the deposited data

How the results depend on the processing

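In the rank test no region of the 9 genes passed under any alternative run, and the Cspg4 start was lower in DOX wherever it was tested, by −0.85 to −0.55 with 1 library left out. For peaks per gene, 0 to 1 of the genes passed with 1 library left out. These were Acta2 without DOX replicate 1 (−0.49, adjusted p = 0.000132, limma), Des without DOX replicate 3 (−0.21, adjusted p = 0.00609, limma) and Mcam without PBS replicate 3 (−0.36, adjusted p = 1.38e-05, limma). In each the remaining libraries of a group held the same number of peaks, so the fitted spread was near 0.

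Regions listed after DOX only numbered 0, or 2 in the deposited lists, and 0 to 1 with 1 library left out: the Rgs5 start without PBS replicate 1 and the Rgs5 region at 169685204 without DOX replicate 1. After PBS only it was 0 to 1, the Des start without DOX replicate 3. The summed peaks differed by −1.33 (DOX minus PBS), and this sign did not hold: it differed by 4.67 in the deposited lists, by 0.33 in lists of 32731 peaks, by merged regions and counting every gene within 100 kb, and by −3.0 to 0.5 with 1 library left out. Genes with an open end in every library numbered 5, and also 5 with any library left out, 3 in lists shortened to 32731 peaks, 4 when the summit itself had to lie in the window (Tagln was lost), and 7 in the deposited lists and with a window of 2.5 kb. The 3 were Kcnj8, Tagln and Myh11. There Tagln counted only through peaks nearest to Sidt2, because its own end peaks ranked 32902 or weaker.

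Directions of single genes and regions that turned were all of differences that had not passed, and the causes were not tested. Acta2 went to 0 when every gene within 100 kb was counted, and Mcam by merged regions. In the deposited lists these were Acta2 (0.27), Myh11 (−0.17) and Tagln (0.090). Counting every gene within 100 kb gave 0.14 for Cspg4, −0.067 for Myh11 and 0.0035 for Tagln. Lists of 32731 peaks gave 0.080 for Des, 0.16 for Mcam and −0.072 for Myh11. Leaving out 1 library gave 0.016 (DOX replicate 2) and 0.048 (PBS replicate 1) for Cspg4, in a range of −0.22 to 0.048, and −0.024 (DOX replicate 2) and −0.0044 (PBS replicate 3) for Myh11, in a range of −0.024 to 0.11. In the rank test the Rgs5 region at 169692388 turned to −0.059 without PBS replicate 1 (range −0.059 to 0.38) and the Tagln region at 45931934 to 0.069 without PBS replicate 3 (range −0.40 to 0.069).

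Over all genes, 51 were called higher and 47 lower, against 6 and 0 in the deposited lists, 118 and 87 with no filter, 0 when every gene within 100 kb was counted, 80 and 22 by merged regions, 19 and 11 with the spread raised to the trend, and 108 to 150 and 66 to 138 with 1 library left out. Over all shared regions 0 were called, against 13 and 2 by quantile-normalised fold enrichment and 70 and 10 without PBS replicate 1. Whether the replicate numbers pair the libraries was not settled. In deviations from group means, same-numbered libraries correlated at −0.01, −0.02 and 0.00 in peaks per gene and at 0.11, −0.10 and 0.04 in ranks. Other PBS and DOX pairs ran from −0.031 to 0.047 in peaks per gene and from −0.18 to 0.14 in ranks. With the replicate block 0 of the 9 genes and 0 of the 28 regions were called, with 23 and 16 of all genes and 32 and 17 of all regions, and the Cspg4 start stayed at −0.72 (adjusted p = 0.303, limma). The part of depth in which weak starts were listed was not tested.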

Other observations

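Neighbouring genes shared the space around the 9 genes unevenly. Around Myh11, 11 of the 27 open regions within 100 kb were nearest to Myh11, and around Rgs5 it was 8 of 12. Around Tagln it was 2 of 24, with 6 nearest to Pafah1b2, and around Cnn1 it was 2 of 13 among 9 other protein-coding genes. Around Des, the neighbour Speg, a striated muscle kinase gene, held 11 of 26 regions, more than the 7 of Des. Which of these regions act on which gene was not tested.

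Myh11 had the most peaks of the 9 genes. The 3 genes outside the list whose peaks per library were most like it over the 6 libraries were Otogl, Pak4 and Ubl3, each at a Euclidean distance of 0.131 in log2(peaks + 0.5). Their counts followed those of Myh11 to within 1 peak in every library. Such likeness in small whole numbers is a description of counts.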
